A study of Mus musculus with 6 samples.

Results

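The genes described here are 10 antiviral effectors, Bst2, Rsad2, Mx1, Mx2, Rtp4, Ifi44, Xaf1, Ifi27, Ifi35 and Slfn8, taken by name from the 53797 rows of a gene expression table of MLO-Y4 cells. Each name matched a single row. MLO-Y4 is a mouse osteocyte-like line, immortalized with a viral T antigen driven by the osteocalcin promoter. RNA was sequenced from 3 cultures given low-intensity pulsed ultrasound (LIPUS) for 20 min at 1.5 MHz and 30 mW/cm2, and from 3 untreated Control cultures. All cultures grew in medium with fetal bovine serum, and the labels name no added cytokine or virus. RNA was taken after a short incubation. The experiment asked which genes of osteocyte-like cells respond early to ultrasound. Stimulated and Control wells shared a plate, and the study describes a Control culture that stood apart from the other Control cultures and names leakage of ultrasound into its well as a possible source. The table gives a single FPKM (fragments mapped to a gene, scaled to exon length and to the total mapped) for each group, pooled by the authors over its cultures, so no spread between cultures can be given, whether a single culture sets a value was not tested, and all differences below are descriptions with no test. The 10 genes were chosen by their FPKM in the same LIPUS and Control groups. In such bulk RNA, fewer cells that express a gene and less RNA per cell cannot be told apart.

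Antiviral effectors are genes that cells switch on when interferon binds its receptor. The receptor activates a transcription factor complex that holds Stat2 and Irf9 and binds the interferon-stimulated response element (ISRE) in promoters. The gamma-activated site (GAS) is a second element known from interferon-induced genes. The proteins then act at separate steps of a virus life cycle. Bst2 (tetherin) holds budding virions at the cell surface, the dynamin-like GTPases Mx1 and Mx2 trap incoming viral particles, and Rsad2 (viperin) makes a nucleotide that stops viral polymerases. Many cell types keep a low level of these genes without infection.

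Promoter sequences are described first, since the ISRE is what such genes are known to share, though the values of the genes were already known. RefSeq windows on GRCm38.p6, from 250 bases before to 50 bases after a transcription start, were found for 6 of the 10 genes, namely Bst2, Ifi35, Ifi44, Rsad2, Slfn8 and Xaf1. The ISRE core was searched as GAAA, any 2 bases and GAAA, on both strands, with overlapping matches counted. It occurred in the windows of Bst2, Rsad2 and Slfn8, while 3.44% of all 32851 windows hold it. Bst2 had 2 overlapping matches, from -130 to -121 and from -124 to -115 relative to the start, and only 0.225% of all windows have 2 or more. The match of Rsad2 lay from -120 to -111, and that of Slfn8 from -48 to -39 of its upstream start. The GAS letters, TTC, any 3 bases and GAA, occurred in Bst2, where they overlap the ISRE by 3 bases, and in Ifi35, with 8.30% of all windows as background. The NF-kB pattern, GGGA, any 4 bases and CC on either strand, occurred in Xaf1 and Rsad2, against 20.7% of all windows. A match is a string of letters and not a shown binding site, and its absence says only that these letters are not in the window. The windows of the 3 genes with an ISRE core are printed below 5′ to 3′ on the strand of the gene, with the core (on either strand) in capitals. They lie at chr8:71537423-71537722 for Bst2, chr12:26456403-26456702 for Rsad2 and chr11:83020761-83021060 for Slfn8, all on the minus strand. The window of Ifi44, at chr3:151749861-151750160 on the minus strand, is shown beside them as the gene with the lowest ratio among those with a window and no ISRE match.
Bst2: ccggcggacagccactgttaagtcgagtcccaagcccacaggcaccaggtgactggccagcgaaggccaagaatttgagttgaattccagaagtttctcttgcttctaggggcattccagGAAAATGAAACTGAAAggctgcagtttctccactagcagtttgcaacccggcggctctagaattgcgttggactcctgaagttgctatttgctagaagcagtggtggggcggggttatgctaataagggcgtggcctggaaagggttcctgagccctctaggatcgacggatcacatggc
Rsad2: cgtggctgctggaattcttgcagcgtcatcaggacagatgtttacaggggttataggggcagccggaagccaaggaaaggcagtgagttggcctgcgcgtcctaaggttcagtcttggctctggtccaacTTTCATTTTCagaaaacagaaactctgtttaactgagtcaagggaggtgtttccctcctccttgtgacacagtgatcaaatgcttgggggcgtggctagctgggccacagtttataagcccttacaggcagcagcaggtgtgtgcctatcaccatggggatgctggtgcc
Slfn8: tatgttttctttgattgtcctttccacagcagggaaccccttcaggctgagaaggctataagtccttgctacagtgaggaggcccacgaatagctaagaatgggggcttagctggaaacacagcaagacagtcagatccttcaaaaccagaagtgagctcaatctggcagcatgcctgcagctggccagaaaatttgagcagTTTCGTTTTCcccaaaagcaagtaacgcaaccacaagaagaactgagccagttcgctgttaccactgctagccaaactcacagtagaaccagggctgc
Ifi44: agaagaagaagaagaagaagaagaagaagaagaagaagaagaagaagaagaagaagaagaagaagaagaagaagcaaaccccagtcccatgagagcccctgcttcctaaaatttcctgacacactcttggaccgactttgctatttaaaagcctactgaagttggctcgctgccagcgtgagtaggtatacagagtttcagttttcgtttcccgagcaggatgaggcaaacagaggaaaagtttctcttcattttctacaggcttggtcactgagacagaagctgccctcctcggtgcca

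All 10 genes were above 0 in both groups. Of these, 9 had a lower FPKM with LIPUS and 1, Ifi27, a higher one. By a difference of at least 1.5-fold, 8 genes were lower (Bst2, Mx1, Mx2, Rtp4, Ifi44, Xaf1, Ifi35 and Slfn8), Ifi27 was higher and Rsad2 was neither. Among the 11999 genes with an FPKM of at least 1 in a group, 9.59% were lower and 9.25% higher by this fold. The median log2 ratio of LIPUS over Control was -0.77 over the 10 genes and -0.00048 over all of these genes. By at least 2-fold, 4 of the 10 genes were lower (Mx1, Mx2, Ifi44 and Xaf1) and Ifi27 higher, against 4.29% and 4.34% of all of these genes. The values used here are those with which the 10 genes were chosen, so their count supports nothing by itself. Together their FPKM summed to 911 in Control and 563 with LIPUS, and without Ifi27 to 872 and 481.

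**Figure D1:**
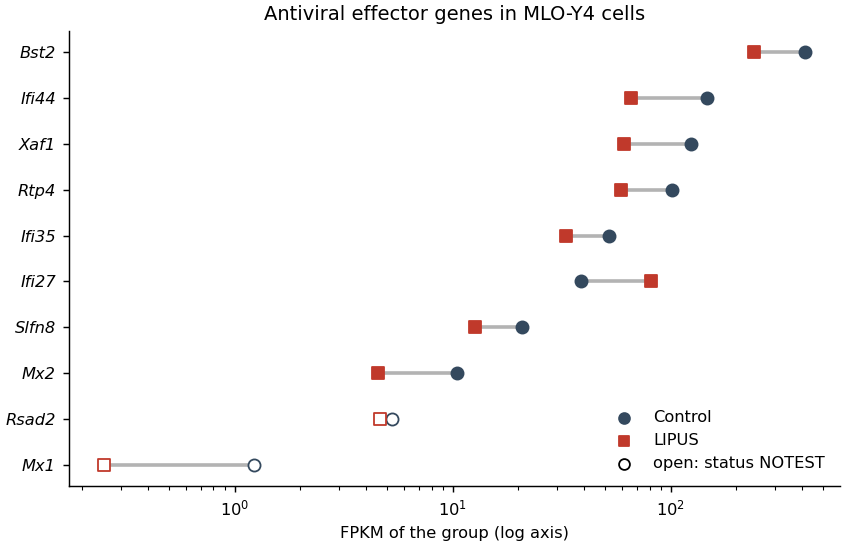
FPKM of the 10 antiviral effector genes in the Control group (circles) and the LIPUS group (squares), on a log axis, with open symbols for genes that the authors' program did not test. Each symbol is 1 pooled value per group, and only Ifi27 lies higher with LIPUS, at 81.5 against 38.7.

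Bst2, on chromosome 8 from 71534255 to 71537456, was the most abundant of the 10 in both groups. Its FPKM was 411 in Control and 240 with LIPUS, a log2 ratio of -0.78 or a 1.71-fold lower level. That placed it at rank 210 of the 15207 genes above 0 in Control and at rank 384 of 15161 with LIPUS. Bst2 alone made up 45.1% of the summed FPKM of the 10 genes in Control and 42.7% with LIPUS. Its difference of LIPUS minus Control, -171 FPKM, was larger in size than that of any other of the 10. On the ratio scale it was close to Rtp4 and the middle of the group, and 6.40% of all genes had a lower ratio.

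The Mx genes lie on chromosome 16 with 72400 bases between them, Mx1 from 97447035 to 97462907 and Mx2 from 97535308 to 97560900, on opposite strands. Mouse Mx1 is a nuclear protein active against influenza virus and Mx2 a cytoplasmic one, and many inbred strains carry defective copies. GENCODE M21 lists Mx2 as a polymorphic pseudogene. Mx2 had an FPKM of 10.5 in Control and 4.55 with LIPUS (log2 ratio -1.21). Mx1 was the least abundant gene of the group, at 1.23 and 0.251, with a log2 ratio of -2.29. Of all genes, 3.13% had a lower ratio than Mx2 and 1.33% a lower ratio than Mx1, but the Mx1 ratio rests on values near 0. With 1 FPKM added to both values it was -0.83. Reads common to both genes are few, since 1.72% of the 100-base stretches of the longest Mx2 transcript occur in a transcript of Mx1.

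Rsad2, on chromosome 12 from 26442746 to 26456452, was the gene of the group nearest to no difference. Its FPKM was 5.28 in Control and 4.67 with LIPUS (log2 ratio -0.18), and 29.0% of all genes had a lower ratio. Rsad2 and Mx1 are the 2 genes of the group with the status NOTEST, which the authors' program gives where too few fragments were aligned for a test. The other 8 had the status OK. Among all 8145 genes of that status, 4.71% were lower and 4.70% higher by at least 1.5-fold, and 7 of the 8 genes were lower. The gene next to Rsad2, Cmpk2, lies on the other strand with 12751 bases between the start sites and encodes a mitochondrial nucleotide kinase. Its FPKM was 7.67 in Control and 3.42 with LIPUS (log2 ratio -1.16), a larger difference than that of Rsad2, while both genes lie in the same range of low FPKM.

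Ifi44, Xaf1 and Rtp4 followed Bst2 in level in Control. They lie on chromosome 3 from 151730922 to 151749960, on chromosome 11 from 72301629 to 72313733, and on chromosome 16 from 23520291 to 23614222. Ifi44, a cytoplasmic protein whose overproduction slows cell growth, had an FPKM of 146 in Control and 65.7 with LIPUS (log2 ratio -1.15). Xaf1, which binds and counteracts the apoptosis inhibitor Xiap, had an FPKM of 124 and 60.9 (log2 ratio -1.03). Rtp4, a chaperone of membrane receptors that also restricts RNA viruses, had an FPKM of 101 and 59.1 (log2 ratio -0.77). Ifi44 was 2.22-fold and Xaf1 2.04-fold lower. Of all genes, 3.43% had a lower ratio than Ifi44 and 4.11% a lower ratio than Xaf1. Xiap itself stood at 6.18 in Control and 6.98 with LIPUS (log2 ratio 0.18). The locus that the table gives to Rtp4 spans 23449417 to 23614222 on chromosome 16 and is shared with Masp1, Gm45338 and AC154571.1. Of the 100-base stretches of the longest Rtp4 transcript, 11.2% occur in a transcript of Gm45338, so part of the Rtp4 value could have been assigned to either gene. Gm45338 was at 6.95 and 6.76 FPKM, and Masp1, on the opposite strand, at 69.4 and 82.4.

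Ifi35 and Slfn8 lie on chromosome 11, from 101448407 to 101458698 and from 83002158 to 83020810, and had log2 ratios closer to 0 than the other lower genes. Ifi35, which forms a complex with Nmi, had an FPKM of 52.2 in Control and 33.2 with LIPUS (log2 ratio -0.65). Nmi, named here after its values were seen, was lower too, at 23.4 and 16.4 (log2 ratio -0.51), and did not reach 1.5-fold. Slfn8, a member of the Schlafen family of growth and antiviral regulators, had an FPKM of 20.9 and 12.7 (log2 ratio -0.71). Slfn9, the neighbour of Slfn8 10327 bases away on chromosome 11, was at 20.6 and 16.9 (log2 ratio -0.29). So the pair had near-equal levels in Control and differed in their ratios, a difference that was not tested. Slfn9 and Slfn10-ps together share 3.71% of the 100-base stretches of the longest Slfn8 transcript. Slfn2, further along the cluster, was at 6.13 and 3.03 (log2 ratio -1.02).

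Ifi27 was the exception. This small hydrophobic protein of mitochondria and the nuclear envelope is usually induced by interferon. Its FPKM was 38.7 in Control and 81.5 with LIPUS, a log2 ratio of 1.07, or 2.11-fold higher. Of all genes, 3.85% had a higher ratio. In Control it held place 6 of the 10 genes by FPKM and with LIPUS place 2, behind Bst2, and its part of their summed FPKM went from 4.25% to 14.5%. Its neighbour Ifi27l2a, a paralog whose gene ends 1927 bases away on chromosome 12, was nearly equal in both groups, at 48.4 in Control and 46.8 with LIPUS (log2 ratio -0.05). No 100-base stretch of the longest Ifi27 transcript occurred in a transcript of another gene, so reads shared with Ifi27l2a at this length were 0%. Ifi27 and Ifi27l2a lie side by side on opposite strands, with Ifi27 from 103434211 to 103440239.

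**Figure D2:**
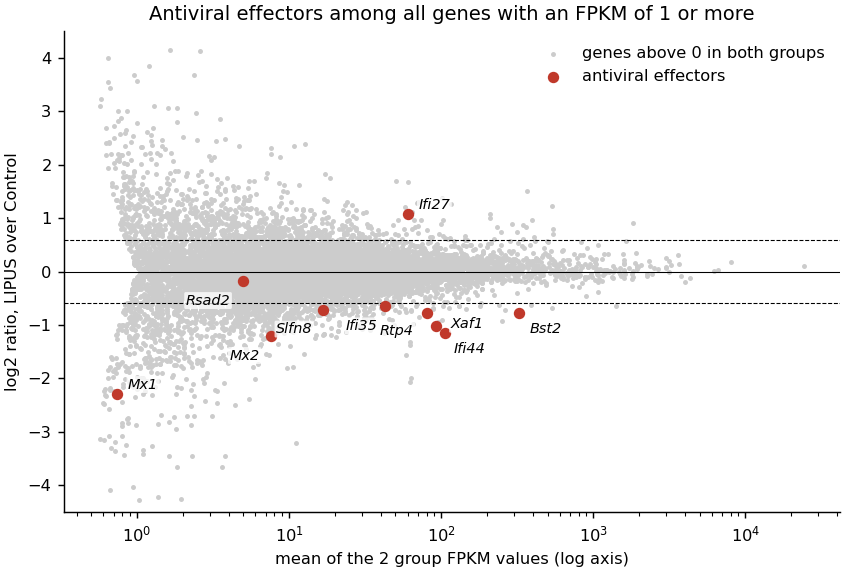
Log2 ratio of LIPUS over Control against the mean FPKM of the 2 groups (log axis) for genes with an FPKM of at least 1 in a group and above 0 in both (grey, with 8 genes outside the axis) and for the 10 antiviral effectors (red), with dashed lines at 1.5-fold. Of the abundant effectors, Ifi44 (-1.15) and Xaf1 (-1.03) lie lowest and Ifi27 (1.07) highest, while Rsad2 and Mx1 lie among the low genes, whose ratios scatter more widely.

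Genes around the effectors were looked at next. Within 100 kb of the 10 genes lay 37 other genes with an FPKM of at least 1. Their median log2 ratio was 0.0068, and 31 of them differed by less than 1.5-fold, while 4 were lower and 2 higher. Among all 11999 genes with an FPKM of at least 1 in a group, 9.59% were lower and 9.25% higher, so the neighbours did not stand out. The 4 that were lower by at least 1.5-fold were Cmpk2, Slfn2, Asb2 (1.40 in Control and 0.188 with LIPUS) and Gm11626, which is listed at 0 with LIPUS and overlaps Ifi35 on the opposite strand. The 2 that were higher by at least 1.5-fold both lie near Ifi35, with log2 ratios of 0.67 and 0.88. Of the 100-base stretches of the longest Ifi35 transcript, 4.04% occur in Gm11626. The gene next to Bst2, Mvb12a, was at 33.2 and 35.5, and Vat1, 46 bases from the end of Ifi35, at 41.6 and 49.5.

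**Figure D3:**
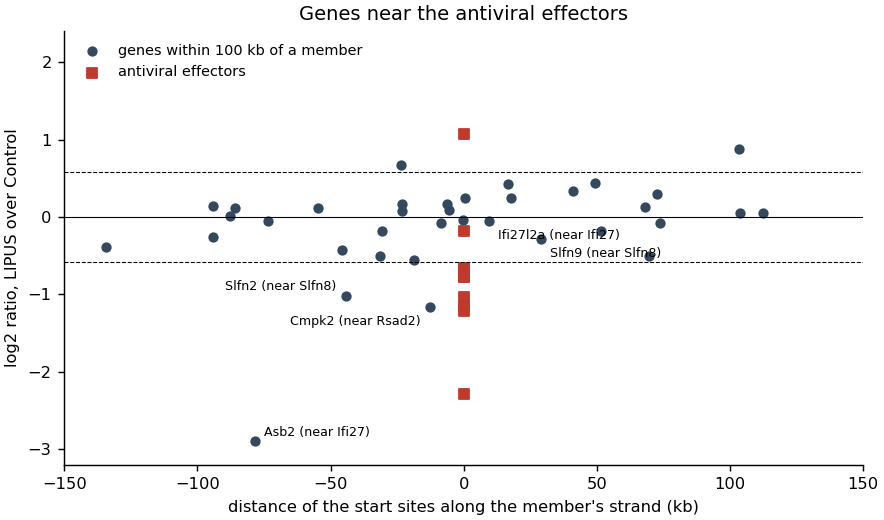
Log2 ratio of LIPUS over Control of genes within 100 kb of an antiviral effector (circles, without Gm11626, which is at 0 with LIPUS) against the distance between the start sites in kb, and of the 10 effectors themselves at 0 (squares), with dashed lines at 1.5-fold. Most neighbours lie near 0, with Cmpk2 at -1.16, Slfn2 at -1.02 and Asb2 at -2.90.

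The ISRE core was also counted in the promoters of all genes, a grouping by sequence that was added after the values of the 10 genes were seen. Of the 8840 genes with a window and an FPKM of at least 1, 8% were lower by at least 1.5-fold. The share was 7.75% among the 8507 genes with no ISRE core, 11.0% among the 301 genes with 1 core and 46.9% among the 32 genes with 2 or more. Their median log2 ratios were 0.00089, -0.02 and -0.57. Without Bst2, the only one with 2 cores among the 6 effectors with a window, 14 of 31 genes were lower and 1, Socs1, was higher. Besides Bst2, the genes with 2 or more cores included Isg15 (326 in Control and 172 with LIPUS), Ifit1 (90.5 and 34.9), Ifit3 (87.8 and 29.8), Oas1g (28.3 and 12.1) and Irgm1 (61.7 and 32.8), all named after their values were seen. In the other direction, 7.36% of the genes with no core and 8.64% of those with 1 core were higher. Among genes with the GAS letters, 8.96% of 703 were lower and 8.96% higher, and of the 37 with 2 or more GAS matches 10.8% were lower and 5.41% higher. Among genes with the NF-kB pattern, 7.97% of 2697 were lower and 7.34% higher, and of the 533 with 2 or more matches 7.5% were lower and 9.94% higher. These shares are descriptions over genes of the same 2 pooled groups, and tandem families such as Ifit and Oas1 count several times in them.

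**Figure D4:**
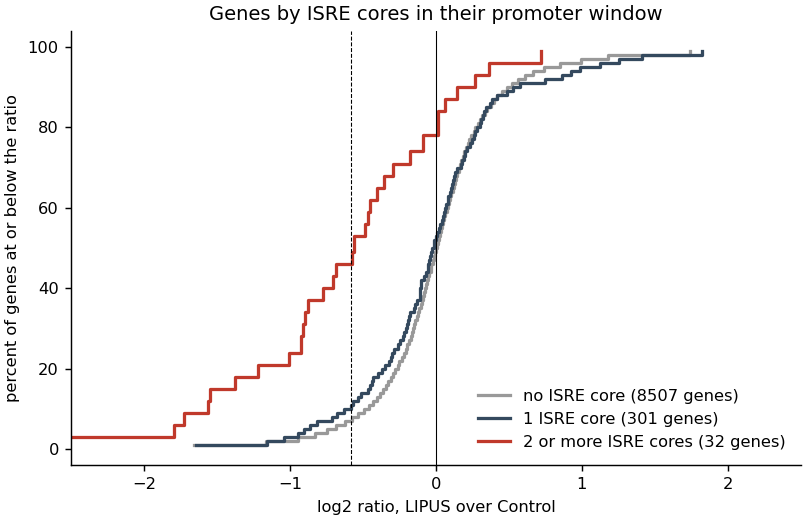
Percent of genes (vertical axis) at or below a log2 ratio of LIPUS over Control (horizontal axis) for genes with no, 1, or 2 or more ISRE cores in the promoter window, with a dashed line at 1.5-fold lower. The curve of the 32 genes with 2 or more cores lies to the left of the others, with 46.9% past the dashed line against 11.0% and 7.75%.

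Many genes in other lists of the interferon response were also lower with LIPUS. These lists were chosen with earlier results of these data known, so their counts are descriptions and support nothing by themselves. The Oas, Ifit, Isg15 conjugation, interferon-inducible GTPase and nucleic acid sensor lists held 38 genes with an FPKM of at least 1. Of these, 27 were lower by at least 1.5-fold and 0 were higher, with a median log2 ratio of -0.88. Among all 11999 genes with an FPKM of at least 1 in a group, 9.59% were lower and 9.25% higher by this fold. Gbp9 (1.63 in Control and 0.462 with LIPUS) reached an FPKM of 1 only in Control. The list medians were -1.47 for the Ifit genes (3 of 4 lower), -1.01 for the GTPases (10 of 11), -0.79 for the Isg15 system (4 of 5), -0.76 for the sensors (5 of 9) and -0.68 for the Oas family (5 of 9). With 8 of 10 lower and a median of -0.77, the effectors sat within this range, and the differences between the lists were not tested. Of the membrane proteins that block virus entry, Ifitm3 had an FPKM of 1041 in Control and 754 with LIPUS (log2 ratio -0.47) and Ifitm2 of 364 and 338 (-0.11). In a list of relatives, partners and similarly named genes of the 10, 3 of 11 were lower (median -0.29). Its most abundant gene, Ifi30, is a lysosomal thiol reductase that shares only the name prefix, and stood at 138 and 137.

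A list of 8 other virus-related genes held restriction factors, some of which interferon can induce (Samhd1, Zc3hav1 and Apobec3), and proteins of budding. Samhd1, Zc3hav1, Apobec3 and Tsg101 are named for what they do. Of these 8 genes 1 was lower by at least 1.5-fold, the sterol synthesis enzyme Fdps (109 in Control and 66.6 with LIPUS), and their median log2 ratio was -0.10. Trim28 was at 161 in both groups and Tsg101, a sorting protein that viruses use for budding, at 85.2 and 78.7. None of the 10 housekeeping genes differed by 1.5-fold, and their median log2 ratio was 0.08. The most abundant of them in Control, B2m, has an ISRE core in its promoter window. It was at 3218 in Control and 3977 with LIPUS (log2 ratio 0.31).

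**Figure D5:**
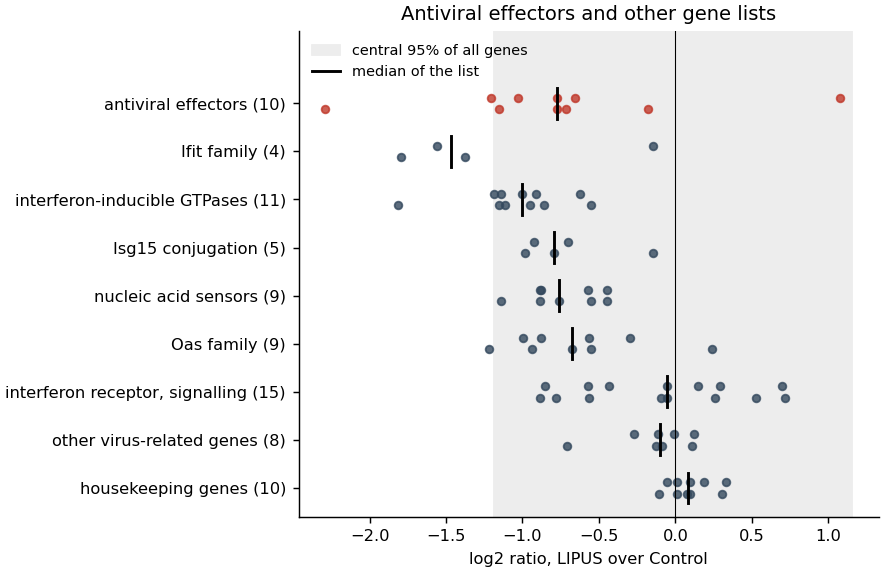
Log2 ratio of LIPUS over Control of each gene with an FPKM of at least 1, by list, with the number of genes in brackets, the median of each list (black bar) and the central 95% of all genes above 0 in both groups (grey, from -1.18 to 1.16). The median of the effectors (red, -0.77) lies among those of the other interferon-induced lists and left of that of the housekeeping genes (0.08), while Ifi27 (1.07) lies to the right of both.

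Upstream of the effectors, the signalling genes were mixed. Of 15 genes of the interferon receptor and signalling list with an FPKM of at least 1, 3 were lower by at least 1.5-fold and 2 higher, with a median log2 ratio of -0.06. Stat2 had an FPKM of 23.2 in Control and 12.6 with LIPUS (log2 ratio -0.88) and Irf7, which amplifies the response, of 124 and 84.0 (-0.56). Socs1, a feedback inhibitor of the receptor kinases, was at 6.71 and 11.0 (0.72). The receptor chain Ifnar1 (16.4 and 15.7) and the Stat2 partner Irf9 (24.7 and 23.1), both named after their values were seen, were nearly equal in both groups. Of the 11 interferon genes, 9 were listed at 0 in both groups. Ifnb1 was at 0.646 in Control and 0.367 with LIPUS, and Ifna4 at 0.607 in Control and listed at 0 with LIPUS.

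The identity of the cells was checked with markers. Of 9 osteocyte markers, Sost, Mepe, Fgf23 and Dkk1 were listed at 0 in both groups, and Phex at 0 in Control and 0.190 with LIPUS. Of the 4 with an FPKM of at least 1, Dmp1 was higher by at least 1.5-fold, at 3.04 in Control and 7.65 with LIPUS, and Pdpn (295 and 402), Cd44 (200.2 and 212) and Gja1 (176 and 170) were neither. Of 7 osteoblast markers, Ibsp was listed at 0 in both groups, and of the other 6, 3 were lower by at least 1.5-fold and 1 was higher. Runx2 (24.4 and 14.8), Sp7 (5.86 and 3.75) and Alpl (293 and 190) were lower, Bglap was listed at 0 in Control and at 1.58 with LIPUS, and Spp1 (4514 and 4158) and Col1a1 (891 and 731) were neither. Of 12 immune cell markers, 8 were listed at 0 in both groups, among them the defining leukocyte marker Ptprc and the macrophage marker Adgre1. The other 4 were Cd14 (8.19 and 10.6), Cd68 (5.32 and 1.72), Lyz2 (2.01 and 0.189) and Csf1r (0.236 and 0.233), and the list summed to 15.8 FPKM in Control and 12.8 with LIPUS. Cd68 and Lyz2 were lower with LIPUS, as were 8 of the 10 effectors by at least 1.5-fold, and their part in the result was not tested. In Control these markers lay far below Bst2 but in the range of the low effectors, Rsad2 (5.28) and Mx1 (1.23).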

How the data were processed

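RNA of 3 LIPUS-treated and 3 untreated MLO-Y4 cultures was sequenced from stranded mRNA libraries. Per the submitters' processing notes, reads were trimmed with Trimmomatic 0.36, aligned to GRCm38 with TopHat2 2.1.0 and Bowtie2 2.2.6.0, and quantified with Cufflinks 2.1.1 (the methods name a later release) and Cuffdiff, with Ensembl transcripts. The authors deposited 1 table with a pooled FPKM for each group. Its columns of the authors' own comparison (log2 fold change, test statistic, p, q and a call) were not used, and only the status field was read. The methods state a nominal read depth for all samples alike, but the table gives no counts, so the fragments behind each value and their precision are not known, and no SD, interval, p-value or fit with a sample left out is given.

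The log2 ratio is LIPUS over Control without a pseudocount. Genes with an FPKM of at least 1 in a group were kept, and 222 of them, at 0 in a single group, count as past the fold. The fold of 1.5 was set with no error estimate behind it. The alternatives were pseudocounts of 0.1 and 1, centring, upper quartile scaling, other minimum values (both above 0, 10, or status OK) and a lower fold and a fold of 2. Rows with the same symbol were summed in lists. The genes named are the 10 members, genes within 100 kb, and from each other list at most 4, drawn from those with the highest and lowest ratio and the highest FPKM in Control, unless stated. Markers of bone cells, and immune markers above 0, are all given. The members and lists were chosen with earlier results of these data known. Positions are from GENCODE M21 (GRCm38), matched by gene identifier, and promoters from RefSeq (GRCm38.p6), matched by symbol. Proteins were not analysed here, and the values of some listed genes are not reported here. The steps were tested on simulated data, with Python 3.11.15, numpy 2.4.6, pandas 2.3.3 and matplotlib 3.10.9.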

Additional observations from a re-analysis of the deposited data

How the results depend on the processing

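The direction of each of the 10 genes was the same under pseudocounts of 0.1 and 1, centring and upper quartile scaling, and of these 40 values only that of Mx1 with a pseudocount of 1 (-0.83) moved by more than 1.5 times. The median of the effectors lay between -0.77 and -0.76 under the pseudocount, scaling and minimum alternatives, those with a minimum FPKM of 10 and with the status OK covering the 8 genes left without Mx1 and Rsad2. At a fold of 2, 4 of them were lower. The share of all genes lower past the fold was 4.02% with a minimum FPKM of 10, 4.71% for the status OK, 19.1% at a lower fold than 1.5 and 4.29% at a fold of 2. Among genes with 2 or more ISRE cores 25% were lower at a fold of 2. The median of the immune cell markers turned from -1.63 to 0.38 with a minimum FPKM of 10 and with the status OK, since only Cd14 was left, and was -0.82 without a minimum. The median of the osteocyte markers was 0.08 with a minimum FPKM of 10. The median of the list of relatives and similarly named genes was -0.50 without a minimum, and -0.10 with a minimum FPKM of 10 and with the status OK. No paired analysis was possible because the table holds a pooled value for each group, and for the same reason no replicate was left out. The fragments behind each value are not given, and counting error limits the low values most, of which Mx1 and Rsad2 carry the status NOTEST.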

Other observations

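Of the 32 genes with 2 or more ISRE cores in the promoter window, 20 were in none of the lists of interferon and antiviral genes used here. Of these 20, 6 were lower with LIPUS by at least 1.5-fold and 0 were higher, with a median log2 ratio of -0.43. Of all 8840 genes with a window and an FPKM of at least 1, 8% were lower and 7.39% higher by this fold. Trim21, an antibody receptor of the cytosol that sends bound virus to the proteasome, had an FPKM of 10.5 in Control and 3.59 with LIPUS (log2 ratio -1.55). Ddx60, a helicase linked to RNA sensing, was at 5.76 and 3.09 (-0.90), Rbm43 at 12.7 and 7.76 (-0.71), and the apolipoprotein L gene Apol9b at 139 and 86.6 (-0.68). Its neighbour Apol9a, at 147 and 98.4 (-0.57), lay just short of the fold, and reads of this pair may be hard to tell apart. The remaining lower genes were 9130024F11Rik, at 2.18 and 0.658, and Gm12250, at 1.26 in Control and listed at 0 with LIPUS. Both reached an FPKM of at least 1 only in Control. Genes of the same promoter class near a ratio of 0 included Vhl, at 10.1 in both groups, and Trim26, at 20.8 and 19.5. All of these genes were named after their values were seen. The lists do not cover all interferon-induced genes, so a place outside them does not set a gene apart from the interferon response.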
